A study of Mus musculus with 8 samples.

Results

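The Zfp-named zinc finger genes of mouse CD11c positive bone marrow cells were described after loading with acLDL. Members were all genes whose symbol is Zfp followed by a number, apart from Zfp36 and its relatives Zfp36l1, Zfp36l2 and Zfp36l3, which carry another kind of zinc finger. The deposited table holds 251 such genes among 11756, and 194 of them reached a value of 10 in 4 or more libraries and could be tested, as could 10091 genes in all. The rule used gene names and no measured value, although earlier results of these data were known when it was chosen.

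RNA was measured in 4 libraries of cells given acLDL, which is acetylated low density lipoprotein, a modified lipoprotein taken up by scavenger receptors, and in 4 libraries of control cells. Both groups came from the femurs and tibias of C57BL/6 mice with no stated mutation, were sorted by flow cytometry for CD11c, an integrin of dendritic cells and some macrophages, and received acLDL or the control on culture day 6 for 24 h. Nothing in the labels says how many animals were used or whether the libraries of a group are separate cultures, so a p-value here is set against the spread among these libraries, and that spread may be only technical. Age and sex are not given in the labels.

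A C2H2 zinc finger is a short loop held by a zinc ion on a pair of cysteines and a pair of histidines, and arrays of such fingers read DNA along its major groove. Many mouse Zfp proteins also carry a KRAB box, which recruits the corepressor TRIM28 and, through it, histone methylation and heterochromatin proteins, and many KRAB zinc finger proteins silence retroelements. The KRAB genes lie in clusters that grew by duplication. Other Zfp genes share only the name and the finger: some activate promoters of housekeeping genes, and some bind RNA, ribosomes or the mitotic spindle.

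The annotated proteins showed this mixture. GENCODE gave a protein for 245 members, and 238 of them held at least 1 match to the C2H2 spacing, with a median of 10 fingers and a maximum of 33. A KRAB letter pattern was found in 137 proteins and not in 108. Those with it had a median of 12 fingers, against a median of 7 fingers in those without it. The pattern misses divergent boxes, so a protein without it may still carry a KRAB box. Chromosome 7 held 59 members, chromosome 17 held 28 and chromosome 13 held 23.

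The libraries differed from each other in ways that touch every value below. The deposited values are already normalized, with library totals of 3917426 to 4385051. The share of all genes listed at 0 was 6.98%, 18.5%, 21.9% and 11.1% in acLDL libraries 1 to 4, against 12%, 11.4%, 5.63% and 9.06% in control libraries 1 to 4. The mean log2 level of genes with transcripts under 1000 nt, relative to the mean over libraries, was 0.84, -1.09, -1.75 and -0.26 in acLDL libraries 1 to 4, against 0.07, 0.73, 0.86 and 0.60 in control libraries 1 to 4. The mean of this short-transcript index was -0.56 with acLDL and 0.56 in controls, and 3 of the 4 acLDL libraries lay below every control. The index and the treatment therefore cannot be fully told apart, and a value fitted with the index as a covariate may also lose a part of the treatment's effect. The index was lowest in acLDL libraries 2 and 3, while acLDL library 1 was closest to control library 3 (Spearman's rho 0.94 across genes, which are not independent). Itgax, which encodes CD11c itself, had 189, 10, 0 and 42.7 in acLDL libraries and 81.5, 182, 195 and 172 in control libraries, so the marker of the sort was low or at 0 in acLDL libraries 2 and 3. Most dendritic cell, macrophage and granulocyte markers were lower with acLDL, as were 5618 of the 10091 genes tested. The index was not fitted as a covariate for the markers. Of the 15 dendritic cell markers 13 were tested, with 3 higher and 10 lower mean log2 values and a median log2 fold change of -1.26, although H2-Eb1 alone lifted their summed value to 33271 to 45134 with acLDL, against 26652 to 30884 in controls. Among the 12 macrophage and monocyte markers 3 were higher and 9 lower, with a median of -1.41 and sums, mostly of Lyz2, of 26308 to 60916 with acLDL and 43131 to 68350 in controls. For the granulocyte list, 9 of 11 markers were tested, 2 higher and 7 lower, with a median of -1.45 and sums of 8402 to 18098 with acLDL and 11399 to 20294 in controls. Hbb-bs, the only one of 7 erythroid markers in the table, had a log2 fold change of -2.52, with 54.1 to 190 with acLDL and 164 to 1429 in controls. Lymphocyte markers went the other way, with 2 of 8 in the table, both higher, and a median of 0.73. Their sums were 29.4 to 76.8 with acLDL and 16.6 to 31.4 in controls. Of 4 plasmacytoid markers 2 were tested, both lower, with a median of -0.17. Of 5 mast cell and basophil markers 1 was tested, with a log2 fold change of -0.18. The part of these differences in the Zfp results was not tested, except where values with the index as a covariate or without a library are given. In such bulk samples, fewer cells of a type, less RNA per cell and the library differences above cannot be told apart.

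No Zfp gene passed the threshold in the comparison of acLDL with control cells, which asks how lipid loading changes CD11c positive cells. With limma on log2(value + 5) and Benjamini-Hochberg adjustment over the 10091 genes, 0 members were called higher and 0 lower at an adjusted p under 0.05, and the smallest adjusted p of a member was 0.298. The share called among all genes was also 0%. At an unadjusted p under 0.05, 15 members were higher with acLDL, which is 7.73% of those tested, and 7.42% of all genes were. In the other direction 6 members were lower, which is 3.09%, and 8.93% of all genes were. All 4 acLDL values lay above all 4 control values in 6 members, or 3.09%, and in 3.44% of all genes. They lay below all control values in 3 members, or 1.55%, and in 2.2% of all genes. The higher counts and the lower count without overlap were thus near the background. The lower count at an unadjusted p under 0.05 was below it.

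In the main fit the middle of the family nonetheless lay to the other side of 0 from that of all genes. The mean log2 value was higher with acLDL in 114 tested members and lower in 80, so that 58.8% were higher, against 44.3% of all genes. The median log2 fold change, acLDL minus control, was 0.14 over the members and -0.13 over all genes. The gap between these medians narrowed with the short-transcript index as a covariate, to 0.07 for members and 0.03 for all genes. Over genes above 0 in every library, the medians were 0.18 for 142 members and 0.03 for all 7271 genes, both above 0. In that setting 63.4% of members and 51.7% of all genes were higher. Under quantile normalization, which moved the median of all genes to 0.15, the members' median was 0.49. These medians describe the tested members and carry no test.

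Summed over all 251 members, the Zfp genes took 4812, 5051, 5737 and 5524 ppm (parts per 1000000 of the library total) in acLDL libraries, against 4583, 4167, 4621 and 4807 ppm in control libraries. The means were 5281 ± 424 ppm with acLDL and 4544 ± 270 ppm in controls (SD, n = 4 each), a log2 ratio of 0.22. The groups did not overlap, but the lowest acLDL library and the highest control library differed by little. A few genes carried much of this sum. Without the 10 members of highest mean value, the remaining genes summed to 2913, 2923, 3295 and 3167 ppm with acLDL and to 2803, 2835, 2847 and 3101 ppm in controls, and the groups overlapped.

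**Figure D1:**
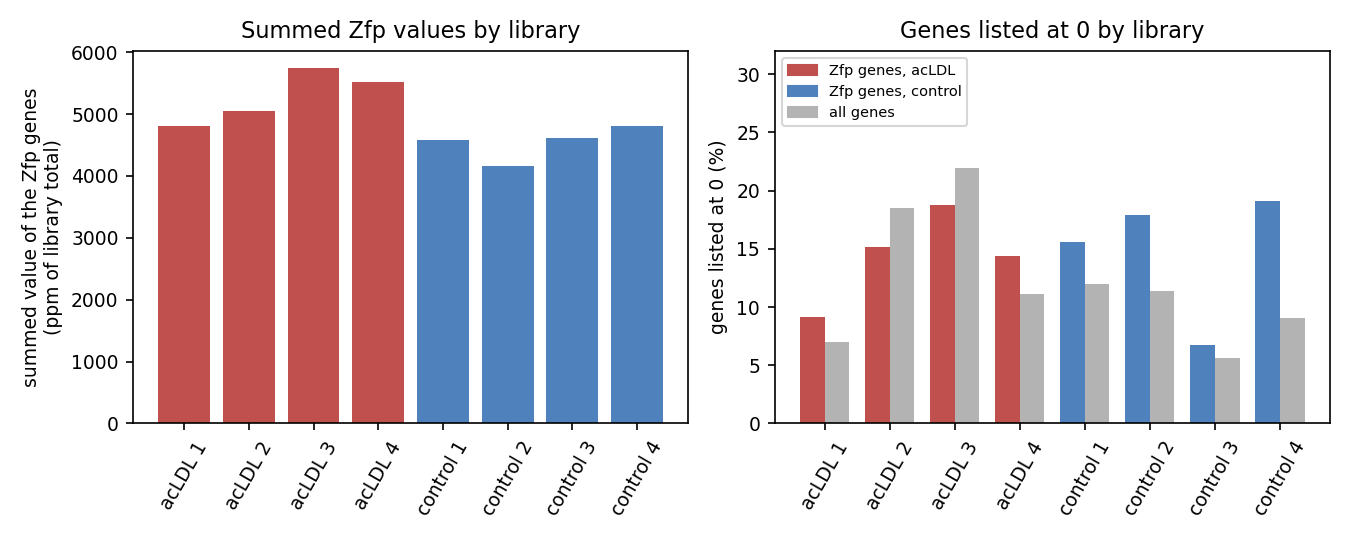
Left, the summed value of the 251 Zfp genes in ppm of the library total in each of the 4 acLDL and 4 control libraries. Right, the percentage of Zfp genes and of all 11756 genes listed at 0 in each library; the acLDL sums of 4812 to 5737 lie just above the control sums of 4167 to 4807, and acLDL libraries 2 and 3 are the ones in which fewer Zfp genes than all genes were at 0.

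The share of members listed at 0 varied by library. Members listed at 0 numbered 23, 38, 47 and 36 in acLDL libraries, or 9.16%, 15.1%, 18.7% and 14.3%, against 39, 45, 17 and 48 in control libraries, or 15.5%, 17.9%, 6.77% and 19.1%. In acLDL library 1, acLDL library 4 and every control library this share was above that of all genes, and in acLDL libraries 2 and 3 it was below it. The number of members at 0 overlapped between groups. In all, 142 members were above 0 in every library.

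Below the filter were 57 members. These genes had mean values of at most 21.4, while the lowest mean of a tested member was 7.98, since the filter counts libraries and not means. In 18 of them the fourth-highest value lay within 20% below the filter of 10, and in 17 tested members it lay within 20% above it. Zfp781 was listed at 12.8, 10.6, 14 and 8.29 in acLDL libraries and at 0 in all control libraries. Zfp9 was listed at 0, 20.2, 9.14 and 11.2 in acLDL libraries and likewise at 0 in all control libraries. The share of all genes with such a pattern was not counted, so neither gene is set apart from the table. The table holds no value between 0 and 5, so a 0 may stand for a low estimate, and no fold is given for either gene. With no filter, all acLDL values lay above all control values in 11 members, or 4.38%, and in 3.21% of all genes. They lay below all control values in 3 members, or 1.20%, and in 2.09% of all genes. For Zfp781, 86.8% of the 31-base words in the last 500 nt of the transcript also occur in other genes, and its reads may be split with them.

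Transcript length separated the Zfp genes from the rest of the table. The longest coding transcript of the tested members had a median of 3935 nt, against 3057 nt for all tested genes, and 5.73% of members were under 1500 nt, against 16.1% of all genes. Under 2000 nt, the median log2 fold change was -0.04 over 19 members and -0.71 over all 2636 genes. It was 0.05 and -0.15 at 2000 to 3000 nt, 0.02 and -0.03 at 3000 to 4000 nt, and 0.13 and 0.03 at 4000 to 5000 nt, with the members given first. At 5000 nt or more it was 0.27 over 56 members and 0.02 over all genes. The members' medians were therefore closest to those of all genes between 3000 and 5000 nt. Over transcripts of 3000 nt or more, the medians were 0.15 for members and 0.01 for all genes, and 0.07 and 0.01 with the index as a covariate.

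**Figure D2:**
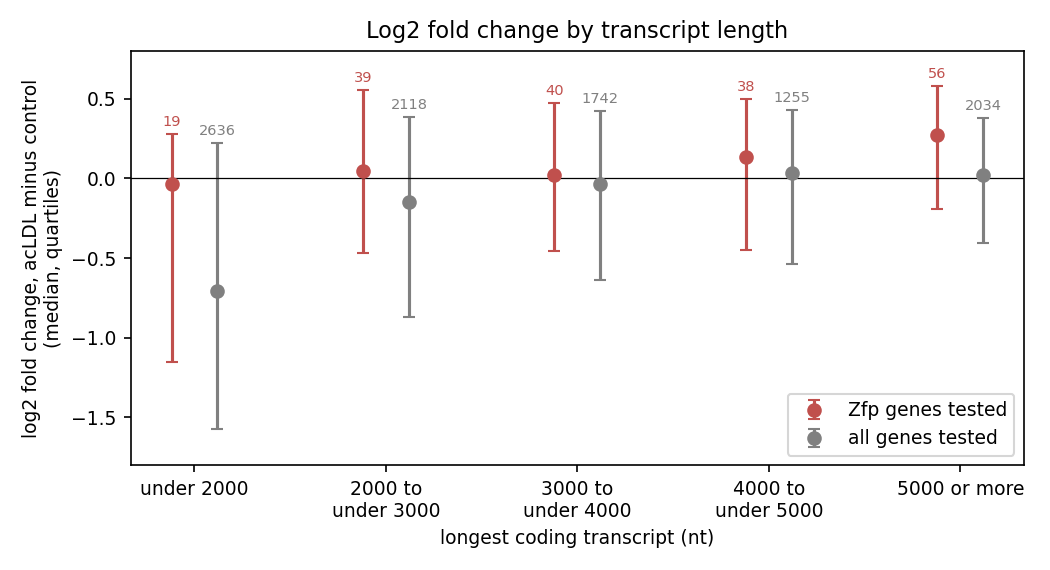
Log2 fold change, acLDL minus control, by length of the longest coding transcript in nt, for the tested Zfp genes and for all tested genes; points are medians, bars run from the lower to the upper quartile, and the numbers above count genes. Short genes of the whole table lie low, at a median of -0.71 under 2000 nt, and only 19 tested Zfp genes are that short.

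The proteins with the fewest fingers had the lowest median fold change, and there was no steady trend above them. The tested members with 0 to 5 fingers had a median log2 fold change of -0.22, with 18 higher and 27 lower. The median was 0.21 for 6 to 10 fingers, with 36 higher and 19 lower, 0.17 for 11 to 15 fingers, with 33 higher and 23 lower, and 0.26 for 16 or more fingers, with 23 higher and 11 lower. Without acLDL library 1 the 4 medians were -0.25, 0.22, 0.14 and 0.27, in the same order of classes. With the index as a covariate they were -0.07, 0.13, 0.30 and 0.02, so the low class stayed lowest and the class of most fingers moved next to it. Transcripts under 2000 nt made up 20%, 9.09%, 7.14% and 0% of the tested members of these classes, and their part was not tested otherwise.

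The members were also divided by the KRAB pattern, a division that overlaps the one by fingers. The pattern was in 11.1%, 52.7%, 76.8% and 76.5% of the tested members of the finger classes, from fewest to most. Among members with it, 64 of 103 had a higher mean log2 value with acLDL, with a median fold change of 0.18 on the log2 scale. Among those without it, 46 of 87 were higher, with a median of 0.03. With the index as a covariate the medians were 0.20 with the pattern and -0.01 without it. Differences between KRAB or finger classes were not tested, since the genes of a class are not replicates.

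**Figure D3:**
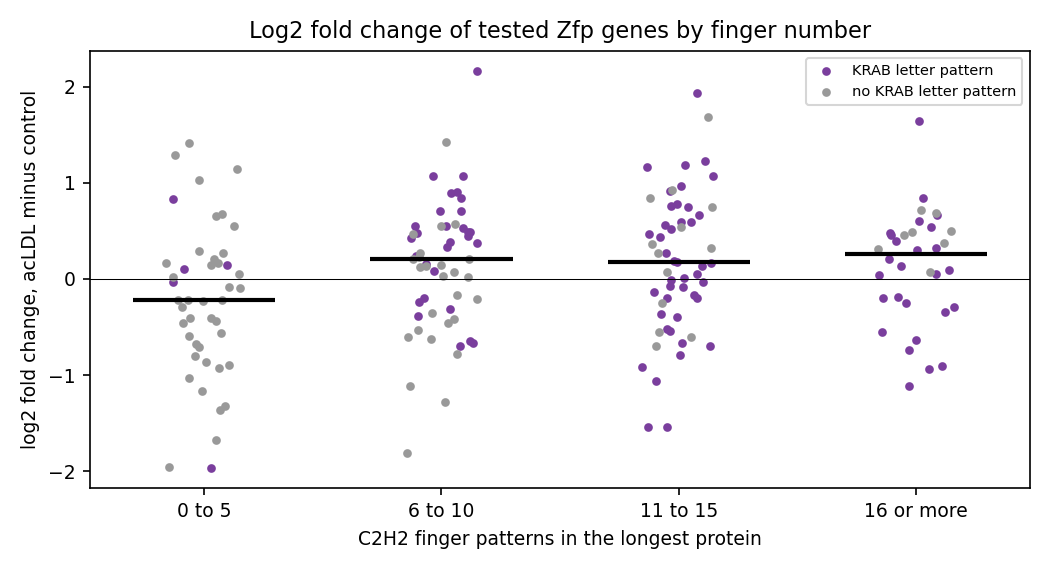
Log2 fold change, acLDL minus control, of each tested Zfp gene with an annotated protein, by its number of C2H2 finger patterns; colour marks the KRAB letter pattern and black bars are class medians. The median of -0.22 for 0 to 5 fingers lies below 0, and those of the other 3 classes are between 0.17 and 0.26.

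The members whose groups did not overlap were examined library by library. Zfp24, a SCAN domain protein needed for myelination by oligodendrocytes in mice, had values of 56.9, 121, 162 and 85.5 in acLDL libraries and of 45.9, 24.7, 46.4 and 37.1 in control libraries. The means were 106 ± 45.3 with acLDL and 38.5 ± 10.1 in controls (SD, n = 4 each), and the log2 fold change was 1.29 with an SE of 0.37, unadjusted p = 0.0071 and adjusted p = 0.298 in limma. All acLDL values were higher, with the smallest gap at acLDL library 1. Its log2 fold change was 0.69 with the index as a covariate.

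Zfp27 (chr7:29893333-29906572, GRCm38), a KRAB protein with 21 fingers, had 21.6, 27.2, 40.4 and 36.1 in acLDL libraries and 9.06, 9.03, 0 and 12.3 in control libraries, a log2 fold change of 1.64 with an SE of 0.50 (limma, unadjusted p = 0.0094). The lowest acLDL value was above the highest control value. However, Zfp27 reached the filter only through its acLDL libraries, which favours a higher value with acLDL. Its p-value and its lack of overlap are therefore no independent support for a rise. Its log2 fold change was 2.38 with a pseudocount of 1 and 0.90 with a pseudocount of 20. Zfp386 (chr12:116047724-116063360), a KRAB protein with 9 fingers, had 323, 311, 398 and 393 in acLDL libraries and 228, 146, 276 and 234 in control libraries. Its means were 356 ± 45.5 with acLDL and 221 ± 54.6 in controls (SD, n = 4 each), with a log2 fold change of 0.70 and an SE of 0.24 (limma, unadjusted p = 0.016). This gene had the largest values among those without overlap, and its log2 fold change was 0.63 with the index as a covariate and 0.75 without acLDL library 1.

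Zfp429 (chr13:67387905-67399819), a KRAB protein with 10 fingers, had 57.0, 42.3, 45.5 and 38.9 in acLDL libraries and 22.6, 15.5, 28.2 and 23.4 in control libraries, a log2 fold change of 0.90 with an SE of 0.32 (limma, unadjusted p = 0.019). All libraries of each group lay together, and with the index as a covariate the log2 fold change was 1.02. Zfp324 had 43.4, 39.2, 39.8 and 71.8 with acLDL and 38.6, 8.36, 21.9 and 19.0 in controls, for a log2 difference of 1.07 (SE 0.43). Its control library 1 came within 1 unit of the lowest acLDL value. Zfp846 had 31.4, 60.2, 32.4 and 30.9 with acLDL and 28.9, 8.94, 19.9 and 9.04 in controls, for a log2 difference of 1.07 (SE 0.44). Both are KRAB proteins, and each owed its highest value to a single acLDL library.

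Zfp598 (chr17:24669687-24682016), the ubiquitin ligase that marks collided ribosomes, was lower in all acLDL libraries. It had 57.1, 35.4, 42.6 and 36.6 with acLDL and 78.4, 82.8, 84.5 and 65.1 in controls. The means were 42.9 ± 9.96 with acLDL and 77.7 ± 8.76 in controls (SD, n = 4 each), and the log2 fold change was -0.80 with an SE of 0.27, unadjusted p = 0.015 and adjusted p = 0.298 in limma. It was -0.63 with the index as a covariate and -0.93 without acLDL library 1.

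Zfp729a (chr13:67612763-67637791), a KRAB protein with 27 fingers, had 12.1, 12.7, 20.4 and 9.98 in acLDL libraries and 41.7, 34.5, 25.4 and 22.9 in control libraries, a log2 fold change of -0.94 with an SE of 0.37 (limma, unadjusted p = 0.033). With the index as a covariate it was -1.22. Zfp703, a corepressor of the NET family, had 19.5, 13.9, 12 and 18.8 with acLDL and 26.5, 31.9, 19.5 and 29.5 in controls. The log2 fold change of this gene was -0.60 with an SE of 0.35. Its highest acLDL value and its lowest control value nearly met at 19.5, and its unadjusted p of 0.13 in limma did not pass.

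**Figure D4:**
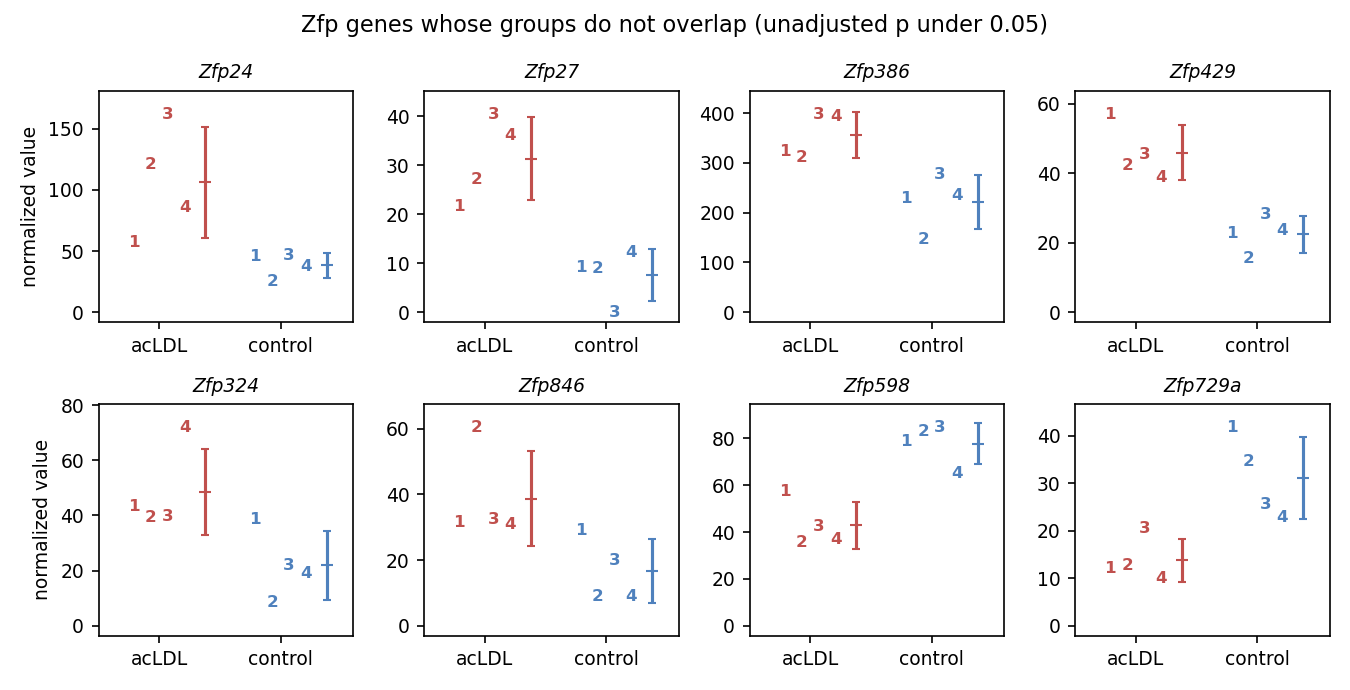
Normalized value per library of the 8 Zfp genes with an unadjusted p under 0.05 whose groups do not overlap; digits are the libraries of each group by number, and the bars beside them show the mean ± SD of 4 libraries. Zfp24, Zfp27, Zfp386, Zfp429, Zfp324 and Zfp846 are higher with acLDL, and Zfp598 and Zfp729a are lower, with none passing the adjusted threshold.

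The other 9 members that were higher at an unadjusted p under 0.05 overlapped the controls through acLDL library 1 or a single control library. They were Zfp964, Zfp345, Zfp775, Zfp125, Zfp280b, Zfp111, Zfp426, Zfp282 and Zfp35, with log2 fold changes of 0.71 to 2.17, and they are named here after their values were seen. Zfp111, for example, had 39.3, 129, 124 and 106 with acLDL and 55.5, 28.8, 55.7 and 41.9 in controls. Zfp964 had 10.2, 23.7, 50.2 and 34.8 with acLDL, while control library 1 had 14 and the other controls were at 0. Like Zfp27, Zfp964 reached the filter only through its acLDL libraries, so its p-value is no independent support for a rise. The other 4 lower members, Zfp978, Zfp524, Zfp64 and Zfp821, were at or near 0 in acLDL libraries 2 and 3 and had log2 fold changes of -1.97 to -1.68.

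Leaving out acLDL library 1, the acLDL library nearest to the controls, ended the absence of calls. Dropping the treated library most like the controls tends to widen the gap between groups and to narrow the acLDL spread. The calls in this setting are therefore listed as a dependence on that library and are no support for a change. Then 11 members were called higher, or 5.67%, and 7.28% of all genes were called higher, while 9 members were called lower, or 4.64%, and 14.4% of all genes were called lower. Among genes with transcripts of 3000 nt or more, 8 of 134 members were higher, against 7.79% of all such genes, and 3 of 134 were lower, against 7.12%. The genes called higher were Zfp964, Zfp775, Zfp27, Zfp125, Zfp638, Zfp24, Zfp111, Zfp426, Zfp282, Zfp622 and Zfp991. Those called lower were Zfp978, Zfp524, Zfp64, Zfp560, Zfp821, Zfp637, Zfp263, Zfp277 and Zfp598. With all 8 libraries and the index as a covariate, none was called, and the log2 fold changes of Zfp622 (0.02), Zfp263 (-0.08) and Zfp277 (-0.08) were near 0. Others of these 20 genes kept large values with the covariate, among them Zfp125 (1.48), Zfp27 (1.28), Zfp964 (1.28) and Zfp821 (-1.24). In acLDL libraries 2, 3 and 4, 25 members lay above every control, or 12.9%, and 14% of all genes did. In the same 3 libraries 16 members lay below every control, or 8.25%, and 18.9% of all genes did.

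At an unadjusted p under 0.05, leaving out acLDL library 1 gave 27 higher and 19 lower members, with 14.2% of all genes higher and 25.3% lower. Leaving out control library 1 as well gave 14 members called higher, with 10% of all genes, and 13 called lower, with 20.9%, or at an unadjusted p under 0.05 30 higher, with 16.2%, and 20 lower, with 28.1%. Without acLDL libraries 2 and 3, which stand apart, 0 members were called and 4 were higher at an unadjusted p under 0.05, with 1.06% of all genes, and 1 was lower, with 1.96%. The index as a covariate left 0 calls, 6 members higher at an unadjusted p under 0.05, with 1.78% of all genes, and 3 lower, with 3%. Quantile normalization left 0 members called, with 0.00991% of all genes called lower, and had 26 members higher at an unadjusted p under 0.05, with 10.2% of all genes, and 3 lower, with 5.59%. A block for the replicate number left 0 calls, with 7 higher, against 3.15% of all genes, and 4 lower, against 4.08%. In each of these settings the share of tested members that were lower was below that of all genes.

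The RNA and ribosome group held 8 of 9 listed genes, of which 5 had a higher and 3 a lower mean log2 value with acLDL. Only Zfp598 had an unadjusted p under 0.05. Zfp622, whose human counterpart acts in late maturation of the large ribosomal subunit, had 976, 2049, 2481 and 1470 with acLDL and 1473, 965, 955 and 883 in controls. The groups overlapped through acLDL library 1 and control library 1, and the log2 fold change was 0.65 (SE 0.31). Zfp638, whose human counterpart silences retroviral DNA that has not integrated, had 311, 865, 1807 and 995 with acLDL and 422, 177, 445 and 592 in controls. The log2 fold change of this gene was 1.14 (SE 0.55), it was highest in acLDL library 3, and 40.2% of its 31-base words near the end of the transcript are shared with other genes. With the index as a covariate that log2 fold change was 0.21, and without acLDL libraries 2 and 3 it was 0.56.

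Zfp106, an RNA-binding protein that protects motor neurons in mice, had 302, 549, 841 and 382 with acLDL and 682, 298, 307 and 378 in controls, with a log2 fold change of 0.29. Zfp593, a factor of large ribosomal subunit assembly, had 54.5, 0, 0 and 52.4 with acLDL and 6.84, 92.4, 61.4 and 44.2 in controls. Its zeros fell in acLDL libraries 2 and 3. Zfp326, which couples splicing to elongation, had 53.8, 151, 142 and 94.1 with acLDL and 87.9, 154, 82.9 and 85.4 in controls. Zfp830, a splicing factor that guards the genome of the early mouse embryo, had 79.3, 124, 174 and 142 with acLDL and 83.5, 156, 108 and 106 in controls. Zfp385a, an RNA-binding protein and p53 cofactor, had 76.4, 13.1, 0 and 6.46 with acLDL and 43.3, 0, 79.2 and 48.8 in controls. All 5 of these overlapped between groups.

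Promoter-binding factors were measured for 6 of 8 listed genes, 1 with a higher and 5 with a lower mean log2 value with acLDL, and none had an unadjusted p under 0.05. Zfp143, which binds and activates many housekeeping promoters, had 16.9, 5.38, 51.1 and 26.5 with acLDL and 56.1, 19.5, 31.5 and 34.3 in controls. The log2 fold change of this gene was -0.61 (SE 0.56), and the groups overlapped. Zfp263, a SCAN and KRAB protein, had 262, 101, 35.5 and 126 with acLDL and 203, 283, 223 and 232 in controls, for a log2 difference of -1.11 (SE 0.50) that was -0.08 with the index as a covariate. Zfp410, known for activating the Chd4 gene, had 96.9, 11, 335 and 54.0 with acLDL and 65.5, 58.0, 85.9 and 99.5 in controls, so its acLDL values spanned the widest range of the 6 genes.

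Zfp148, which binds GC-rich promoters, had 64.8, 96.6, 106 and 68.9 with acLDL and 131, 107, 79.8 and 77.0 in controls. Zfp281, a related factor known from embryonic stem cells, had 186, 74.7, 85.1 and 151 with acLDL and 119.6, 103, 251 and 187 in controls. Zfp384, which binds A-rich tracts, had 129.5, 302, 385 and 216 with acLDL and 261, 231, 197 and 152 in controls. Each of these overlapped, with log2 fold changes of -0.21, -0.41 and 0.21 in that order.

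Of the genes with a role in immune cells, 3 of 4 listed were measured and none had an unadjusted p under 0.05. Zfp366, also called DC-SCRIPT and known from dendritic cells, had 44.8, 42.1, 15.9 and 37.3 with acLDL and 15.7, 53.1, 39.0 and 0 in controls. Zfp318, needed in B cells for IgD, had 76.2, 113, 108 and 101 with acLDL and 147, 24.6, 77.4 and 42.5 in controls. Zfp91, a ubiquitin ligase of the noncanonical NF-kappaB pathway, had 484, 329.8, 133 and 312 with acLDL and 446, 519, 461 and 452 in controls. The 3 genes had log2 fold changes of 0.74, 0.68 and -0.70 in that order. The Zfp91 value was -0.07 with the index as a covariate.

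KRAB proteins with known retroelement or imprinting roles were in the table for 4 of 6 listed genes, and 3 were tested, with none at an unadjusted p under 0.05. Zfp445, which maintains imprints, had 20.9, 10.8, 51.7 and 21.2 with acLDL and 60.6, 34.6, 14.9 and 77.0 in controls. Zfp809, which recognizes the tRNA primer site of retroviruses, had 77.3, 31.2, 36.6 and 56.8 with acLDL and 23.1, 26.6, 43.4 and 33.3 in controls. Zfp932, which represses endogenous retroviruses, had 39.8, 21.3, 7.85 and 16.5 with acLDL and 21.8, 48.8, 41.6 and 8.18 in controls, and 76.0% of its 31-base words are shared with other genes. Zfp568, which represses a placental transcript of Igf2, was below the filter, with 5.16, 9.17, 0 and 0 with acLDL and 17.5, 13.1, 8.06 and 7.24 in controls. All 4 overlapped between groups.

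Partners of chromatin, SUMO and mitosis were in the table for 12 of 16 listed genes, 6 with a higher and 6 with a lower mean log2 value, none at an unadjusted p under 0.05. Zfp644, a partner of the histone methyltransferases G9a and GLP, had 122, 209, 293 and 227 with acLDL and 97.9, 149, 134 and 168 in controls, for a log2 difference of 0.57 (SE 0.31). Of the 4 acLDL values, 3 lay above every control. Zfp207, which binds microtubules and the checkpoint protein BUB3, had 867, 647, 392 and 592 with acLDL and 514, 797, 771 and 761 in controls. Zfp746, also known as PARIS and a repressor of PGC-1alpha, had 52.6, 0, 0 and 6.04 with acLDL and 0, 17.4, 30.4 and 43.5 in controls. Zfp687, found in complexes with ZMYND8, had 84.3, 106, 110.3 and 109 with acLDL and 104, 128, 75.9 and 97.7 in controls. The log2 fold change of this gene was 0.03 (SE 0.24).

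Values of the remaining genes of that group also overlapped, apart from Zfp703 above. Zfp292 had 141, 282, 353 and 198 with acLDL and 223, 263, 219 and 432 in controls, and Zfp608 had 76.9, 136, 143 and 73.8 with acLDL and 153, 130.0, 60.9 and 86.2 in controls. Zfp516, an activator of the brown fat gene Ucp1, had 36.0, 42.8, 32.2 and 31 with acLDL and 20.6, 96.1, 24.3 and 27.5 in controls, so that control library 2 stood apart. The SUMO ligase Zfp451, Zfp592, the CoREST partner Zfp217 and Zfp827 had values of 24.5 or less in every library, with log2 fold changes of 0.14, -0.17, -0.35 and 0.47 in that order.

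The 10 members of highest mean value were Zfp131, Zfp622, Zfp992, Zfp672, Zfp638, Zfp207, Zfp800, Zfp991, Zfp457 and Zfp106, on a scale that is not per length. Zfp131, a BTB protein, had 2473, 1062, 682 and 1476 with acLDL and 1304, 1579, 1718 and 1417 in controls. Its acLDL libraries surrounded the controls, and the log2 fold change of -0.23 was 0.53 with the index as a covariate. Zfp992, a KRAB protein, had 946, 1231, 1055 and 859.7 with acLDL and 903, 791, 892 and 773 in controls, for a log2 difference of 0.27 (SE 0.17). Zfp672 had 1016, 712, 803 and 1001 with acLDL and 383, 112, 1018 and 991 in controls, where control libraries 1 and 2 were the low ones.

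Zfp800 had 382, 741, 1217 and 678 with acLDL and 684, 386, 407 and 469.5 in controls. Zfp991, a KRAB protein, had 389.6, 492, 668 and 909.8 with acLDL and 359, 369.8, 439 and 387 in controls, for a log2 difference of 0.59 (SE 0.27). Its acLDL libraries lay above the control mean of 389 ± 35.7 (SD, n = 4), yet acLDL library 1 was below control library 3. Of its 31-base words, 86.2% are shared, with Znf41-ps as the leading partner, so its level is uncertain. Zfp457, a KRAB protein with 16 fingers, had 191, 659, 764 and 870.0 with acLDL and 669, 183, 454 and 142 in controls. Of the controls, library 1 alone reached the range of the 3 high acLDL libraries, near its lower end. Its log2 fold change was 0.84 (SE 0.61) and was -0.03 with the index as a covariate.

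Zfp429, Zfp457 and Zfp729a lie in a KRAB gene cluster at chr13:67038596-67827002 (GRCm38), which holds 15 members. Of these, 11 were tested, with 7 higher and 4 lower mean log2 values with acLDL and a median of 0.13 on the log2 scale. The cluster thus held both a gene whose acLDL values were all above the controls and a gene whose acLDL values were all below them. Zfp729b, the next gene to Zfp729a, had a log2 fold change of -1.12, with means of 23.1 with acLDL and 43.5 in controls. A cluster of 15 members on chromosome 17, at chr17:21008903-23193252, also had 7 higher and 4 lower among 11 tested genes, with a median of 0.48. In all, 15 clusters of at least 4 members, each within 500 kb of the next, held 108 of the 250 members with a position.

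Promoters of these genes are shown because they hold the ZNF143 site, the letters that Zfp143 and its human counterpart bind, which of the motifs searched stood furthest above its share in other genes. The RefSeq windows (GRCm38.p6) reach from 250 bases before to 50 bases after the start of a gene, and the 250 bases before it are printed 5′ to 3′ on the gene's strand. Capitals mark matches to the motifs searched, all of them the ZNF143 site except in Zfp457, where an ETS core and a cAMP response element also match. The Zfp180 window also holds an ETS core, which does not lie wholly within the printed bases. Zfp111, Zfp260 and Zfp180 lie on chromosome 7, which holds more members than any other.
Zfp457: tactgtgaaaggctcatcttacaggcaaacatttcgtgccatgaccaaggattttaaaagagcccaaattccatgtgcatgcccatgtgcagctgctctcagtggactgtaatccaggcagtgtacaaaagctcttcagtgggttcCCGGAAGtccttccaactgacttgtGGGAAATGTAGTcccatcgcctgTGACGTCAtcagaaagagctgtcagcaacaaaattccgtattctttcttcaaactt
Zfp429: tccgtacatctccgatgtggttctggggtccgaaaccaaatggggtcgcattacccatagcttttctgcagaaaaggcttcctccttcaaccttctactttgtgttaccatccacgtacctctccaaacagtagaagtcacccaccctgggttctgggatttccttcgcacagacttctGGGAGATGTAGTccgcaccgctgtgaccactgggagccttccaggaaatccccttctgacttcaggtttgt
Zfp729a: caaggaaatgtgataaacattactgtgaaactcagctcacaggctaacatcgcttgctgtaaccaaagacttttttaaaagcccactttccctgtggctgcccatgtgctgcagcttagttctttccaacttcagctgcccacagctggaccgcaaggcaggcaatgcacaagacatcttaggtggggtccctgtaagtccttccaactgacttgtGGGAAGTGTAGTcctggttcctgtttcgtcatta
Zfp111: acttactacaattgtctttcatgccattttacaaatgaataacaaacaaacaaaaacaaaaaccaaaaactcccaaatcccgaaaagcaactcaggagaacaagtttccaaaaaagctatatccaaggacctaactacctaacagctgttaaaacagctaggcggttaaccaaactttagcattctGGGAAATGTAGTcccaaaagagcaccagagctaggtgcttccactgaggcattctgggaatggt
Zfp260: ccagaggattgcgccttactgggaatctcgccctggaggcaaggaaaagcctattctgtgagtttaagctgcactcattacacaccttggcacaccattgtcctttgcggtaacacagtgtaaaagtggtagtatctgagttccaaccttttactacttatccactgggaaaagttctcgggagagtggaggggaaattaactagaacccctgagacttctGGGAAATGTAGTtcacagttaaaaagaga
Zfp180: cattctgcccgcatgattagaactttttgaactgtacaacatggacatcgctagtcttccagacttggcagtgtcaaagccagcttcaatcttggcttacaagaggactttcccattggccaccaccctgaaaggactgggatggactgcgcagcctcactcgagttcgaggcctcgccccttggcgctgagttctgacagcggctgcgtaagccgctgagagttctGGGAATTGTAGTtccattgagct
In each of the 6 promoters the site reads on the strand opposite to the letters searched. Zfp457 lies at chr13:67306413-67306662 on the minus strand, Zfp429 at chr13:67399768-67400017 on the minus strand and Zfp729a at chr13:67637782-67638031 on the minus strand. Zfp111 lies at chr7:24208150-24208399 on the minus strand, Zfp260 at chr7:30094826-30095075 on the plus strand and Zfp180 at chr7:24081647-24081896 on the plus strand.

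The ZNF143 site was written as ACTACA, any 2 bases and then TCCC, and searched on both strands. It was in 40 of 245 windows of the 204 matched members, or 16.3%, against 3.91% of the 11170 windows of genes in the table and 1.81% of all 32851 mouse windows. By gene it was in 40 of 204 members, or 19.6%. On chromosome 13 it was in 14 of 19 members and on chromosome 7 in 19 of 53, whereas on chromosome 17 it was in 0 of 25. Members with the KRAB pattern held it in 32 of 119 cases and those without in 8 of 83. Duplicated genes share sequence, so these promoters are not independent.

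The other motifs differed less. The ETS core CCGGAAG was in 24.1% of Zfp windows, against 18% of windows of table genes, and the cAMP response element TGACGTCA in 5.71%, against 3.09%. The NRF1 palindrome, GCGCA joined to TGCGC, was in 3.27%, against 2.10%, the TATA box TATAAAA in 2.04%, against 2.86%, and the YY1 core AAGATGGC in 4.49%, against 4.50%. All were searched on both strands, and a match to the ZNF143 site shared a base with a match to another motif in 0 of the Zfp windows. The median ratio of observed to expected CpG was 0.668 in Zfp windows and 0.748 in windows of table genes. A match is a match of letters and says nothing of binding in these cells.

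**Figure D5:**
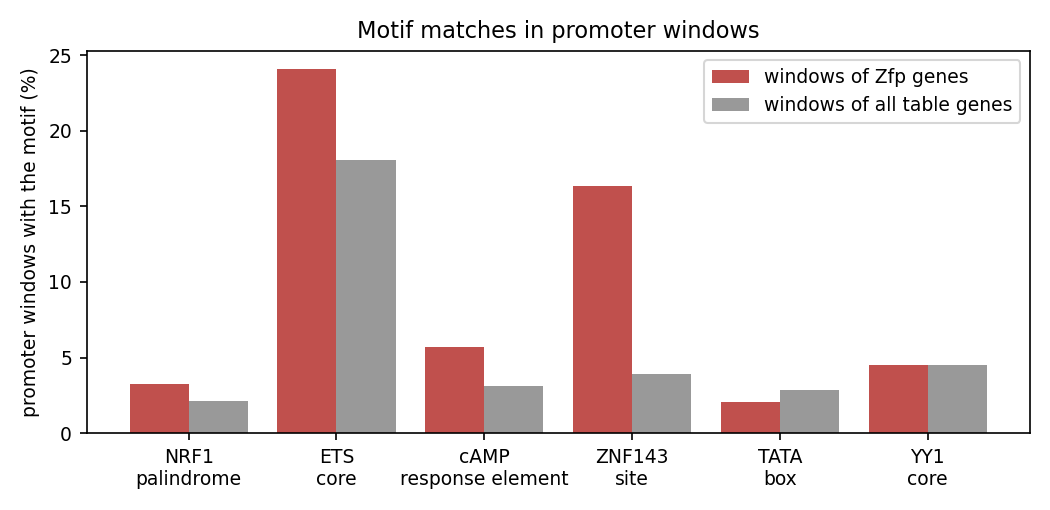
Percentage of RefSeq promoter windows of 300 bases that hold each motif on either strand, for 245 windows of Zfp genes and for 11170 windows of all genes in the table. The ZNF143 site stands out, at 16.3% of Zfp windows against 3.91%, while the YY1 core is at 4.49% against 4.50%.

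The fold changes of members with and without this site were set side by side, with no test. The 25 tested members with the letters had a median log2 fold change of 0.09, with 16 higher and 9 lower, and the 129 without them had a median of 0.14, with 74 higher and 55 lower. With the index as a covariate the medians were 0.01 with the letters, with 13 of 25 higher, and 0.18 without them, with 78 of 129 higher. Among the printed genes, Zfp429 had a log2 fold change of 0.90 and Zfp729a one of -0.94, with the site in both. Zfp260, a factor known from the heart, had 58.9, 139.8, 238 and 179.8 with acLDL and 106, 133, 109 and 93.2 in controls. Zfp180 had 64.8, 19.6, 62.8 and 37.2 with acLDL and 99.1, 39.1, 58.9 and 112 in controls.

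The corepressor side of KRAB silencing was examined with a list of 31 genes of TRIM28 and heterochromatin, of which 29 were in the table and tested. Of these, 14 had a higher and 15 a lower mean log2 value with acLDL, the median log2 fold change was -0.03, and 0 passed the adjusted threshold. At an unadjusted p under 0.05 there were 5 higher, or 17.2%, and 1 lower, or 3.45%, beside 7.42% and 8.93% of all genes. All acLDL values lay above all control values in 4 of the list, or 13.8%, and below them in 1, or 3.45%. The shares of all genes were 3.44% and 2.2%. With the index as a covariate, 10 had a higher mean log2 value and 19 a lower one. At an unadjusted p under 0.05 there were then 3 higher, or 10.3%, and 2 lower, or 6.90%, beside 1.78% and 3% of all genes. Without acLDL library 1 there was 1 call higher, or 3.45%, of Ehmt1 (limma, adjusted p = 0.025). Those called lower were 2, or 6.90%: Trim28 (limma, adjusted p = 0.032) and Daxx (limma, adjusted p = 0.040). Among all genes 7.28% were called higher and 14.4% lower in that setting. As for the Zfp genes, calls made without the acLDL library nearest to the controls are no support for a change. Trim28, the scaffold that KRAB boxes bind, had 228, 16.4, 0 and 48.8 with acLDL and 72.0, 200.0, 151 and 327 in controls. Its log2 fold change of -2.31 (SE 1.05) came with low values in acLDL libraries 2, 3 and 4 and was -0.02 with the index as a covariate and -3.24 without acLDL library 1.

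Ehmt1, a histone H3 lysine methyltransferase also called GLP, had 165, 250.1, 248 and 268 with acLDL and 124, 97.3, 122 and 140.4 in controls, with no overlap and a log2 fold change of 0.90 (SE 0.23; limma, unadjusted p = 0.0039 and adjusted p = 0.298). Rbbp4, a histone chaperone, had 1701, 1781, 1737 and 1872 with acLDL and 1242, 1410.1, 1378 and 1231 in controls, also without overlap, and a log2 fold change of 0.43 (SE 0.15). Mphosph8, a HUSH complex subunit, Atf7ip, which stabilizes the methyltransferase SETDB1, and the methyltransferase Suv39h1 had log2 fold changes of 0.71, 0.51 and 0.67 in that order. The groups did not overlap for Mphosph8 and Atf7ip and overlapped for Suv39h1. Daxx, a chaperone of histone H3.3, had 11.2, 5.28, 0 and 0 with acLDL and 20.4, 26.0, 13.3 and 13.0 in controls, for a log2 difference of -1.49 (SE 0.53). Its groups did not overlap, but it reached the filter only through its control libraries, which favours a lower value with acLDL.

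Other zinc finger families were taken by symbol for comparison. The tested Zbtb genes, which pair fingers with a BTB domain, numbered 25 and had a median log2 fold change of 0.08. The 9 tested Zscan and Zkscan genes had a median of 0.02, and the 15 tested Zc3h genes, whose fingers bind RNA, had a median of -0.22. Without acLDL library 1 these medians were 0.12 for Zbtb, 0.09 for Zscan and Zkscan and -0.0049 for Zc3h genes, and with the index as a covariate they were 0.08, 0.04 and -0.18, in the same order. In the main fit the mean log2 value was higher with acLDL in 60% of Zbtb, 55.6% of Zscan and Zkscan and 33.3% of Zc3h genes, beside 58.8% of Zfp genes. None of these families was tested against the Zfp genes. Reads of 42 Zfp members may be split with near copies, since at least 10% of their final 31-base words occur in other genes, and for 7 members all of them do. The median log2 fold change was 0.14 over the 158 tested members under that limit and 0.03 over the 34 at or above it. By position, 27 members overlap exons of other genes in the table on either strand, so some of their reads may be uncertain. These 27 were counted apart from the 42 and may include some of them.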

How the data were processed

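Poly(A) RNA was extracted on RNeasy columns and sequenced as QuantSeq V2 libraries, which read the 3′ end of messages, per the labels' protocols. The design text of the series speaks of the 5′ end instead. The submitters' processing notes list bcl2fastq 2.20, kallisto with no version, and mm10, which is GRCm38. For the annotation and the normalization, the sources used here give nothing.

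The authors deposited 1 normalized signal per gene and library, called raw counts in the table's name, but the values are not whole. The deposited table has no value between 0 and 5, so depth in reads is unknown and no counting interval was computed. Genes that reached 10 in 4 or more libraries were fitted in limma 3.58.1 (R 4.3.3) on log2(value + 5), with a variance trend, robust moderation and the group as the only term. Log2 fold changes are acLDL minus control, and for low genes they understate the change. P-values are two-sided and were adjusted by Benjamini and Hochberg over all 10091 genes, at a threshold of 0.05. Libraries were grouped by their labelled treatment, and no pair held identical values.

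The members and all gene lists were chosen with earlier results of these data known. Named genes were the 10 members of highest mean, members at an unadjusted p under 0.05 without overlap (up to 8 in each direction), members past the adjusted threshold, the role lists, and members listed at 0 in a whole group. Of the TRIM28 list, up to 6 of smallest p were named, and Trim28 and the genes marked in the text were added after their values were seen. Genes without an entry in the table (10 of the role lists) were not analysed here.

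Positions, longest coding transcripts, protein patterns and shared words came from GENCODE mouse release 21, which matched 247 members, and promoter windows from RefSeq, which matched 204. Fingers were counted by the C2H2 spacing and KRAB boxes by a letter pattern in the translated coding sequence. Shared words are 31-base words of the last 500 nt of a transcript that occur in another gene. Alternatives were pseudocounts of 1 and 20, other filters, size factors, quantile normalization, no trend or robust moderation, a replicate block, the short-transcript index as a covariate, and leaving out each library or pairs of libraries. Restriction to members with few shared words or with transcripts of 3000 nt or more was added after seeing the data. The fit was tested on simulated data, and no statement here rests on that. Its rate of false or missed calls in libraries as uneven as these was not tested. Python 3.11.15 and pandas 2.3.3 were used.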

Additional observations from a re-analysis of the deposited data

Results flagged for a closer look

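In 8 of the 100 sets of 4 values examined for the named genes, the highest or lowest library stood apart from the other 3 by more than 0.829 of the whole range, where chance gives about 1 in 20. With acLDL, Zfp324 had a highest value of 71.8, with 43.4 next, in library 4. Zfp846 had 60.2, with 32.4 next, in acLDL library 2. Zfp746 had 52.6, with 6.04 next, in acLDL library 1, and Zfp687 had a lowest value of 84.3, with 106 next, also in acLDL library 1. Among the controls, Zfp622 had a highest value of 1473, with 965 next, and Zfp207 a lowest value of 514, with 761 next, both in control library 1. Zfp326 had 154, with 87.9 next, and Zfp516 had 96.1, with 27.5 next, both in control library 2. Library 1 of one group or the other thus gave 4 of the 8 values.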

How the results depend on the processing

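The count of 0 calls in each direction held under every setting tried except those that left out acLDL library 1. Leaving out each library in turn gave 0 to 11 higher calls, with 0% to 7.28% of all genes called. It gave 0 to 9 lower calls, with 0% to 14.4% of all genes called. Leaving out acLDL library 1 with control library 1 gave 14 higher, with 10% of all genes called, and 13 lower, with 20.9%. At an unadjusted p under 0.05, leave-one-out counts ran from 9 to 27 higher, with 3.16% to 14.2% of all genes. They ran from 3 to 19 lower, with 3.58% to 25.3% of all genes. These counts were 26 higher and 3 lower under quantile normalization, 6 and 3 with the short-transcript covariate, 4 and 1 without acLDL libraries 2 and 3, and 30 and 20 without acLDL library 1 and control library 1. With the replicate number as a block they were 7 higher and 4 lower. The shares of all genes in these settings are given above. Libraries of the same number did not deviate together (residual correlations -0.55, -0.21, -0.28 and 0.03 for numbers 1 to 4), so the numbers were not taken as pairs.

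The members' median log2 fold change was positive throughout: 0.048 to 0.20 in leave-one-out fits, 0.061 with a pseudocount of 20, 0.088 with no filter, 0.49 under quantile normalization and 0.074 with the covariate. The log2 ratio of summed values was 0.38 under quantile normalization and 0.17 to 0.26 in leave-one-out settings.

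Of the named genes' values, 770 kept direction and side of the threshold, 63 changed sign and 16 passed the threshold in the same direction, all 16 without acLDL library 1. No member passed in any setting with that library, so keeping the side of the threshold says little. Values that kept direction could still shrink to near 0. With the covariate, Zfp622 went from 0.65 to 0.02 and Zfp263 from -1.11 to -0.08. The log2 fold changes that changed sign are these. With the covariate they were 0.53 for Zfp131, 0.25 for Zfp207, -0.16 for Zfp800, -0.027 for Zfp457, -0.43 for Zfp106, 0.35 for Zfp932, 0.18 for Zfp281, -0.45 for Zfp384, 0.67 for Zfp593, -0.49 for Zfp326, 0.38 for Zfp385a, -0.13 for Zfp830, -0.13 for Zfp687, -0.50 for Zfp608 and 0.91 for Zfp746. Without acLDL libraries 2 and 3 they were 0.35 for Zfp131, 0.033 for Zfp207, -0.20 for Zfp106, 0.017 for Zfp932, 0.11 for Zfp281, -0.29 for Zfp384, 0.41 for Zfp593, -0.45 for Zfp326, -0.056 for Zfp830, -0.053 for Zfp687, 0.047 for Zfp592, -0.043 for Zfp516, -0.41 for Zfp608 and 0.27 for Zfp746. Under quantile normalization they were 0.19 for Zfp932, 0.051 for Zfp148, 0.19 for Zfp410, 0.50 for Zfp592 and 0.21 for Zfp217. Without acLDL library 1 and control library 1 they were 0.036 for Zfp148, -0.064 for Zfp451 and -0.20 for Zfp516. With a pseudocount of 20 they were 0.044 for Zfp410 and -0.020 for Zfp516, and with size factors -0.011 for Zfp687, -0.015 for Zfp516 and -0.023 for Zfp608. Leave-one-out values ran from -0.55 to 0.070 for Zfp131, from -0.015 to 0.50 for Zfp384, from -0.81 to 0.66 for Zfp410, from -0.13 to 0.34 for Zfp326, from -0.094 to 0.15 for Zfp687, from -0.19 to 0.47 for Zfp516 and from -0.21 to 0.21 for Zfp608. The cause of these changes was not tested. The table holds no value between 0 and 5, which limits what can be said of low members, and 4 libraries a group limit the precision of all.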
